A study of Mus musculus with 6 samples.

Results

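Enzymes that build purine and pyrimidine nucleotides were examined in sorted long-term hematopoietic stem cells, which renew themselves and feed all blood lineages. The cells were sorted from bone marrow as Lin- Sca1+ c-Kit+ CD48- CD150+. The enzymes were taken from the deposited gene counts by symbol. Of 10 symbols (Prps1, Ppat, Gart, Paics, Atic, Impdh2, Cad, Umps, Ctps and Nme1), 9 were analysed, among 11779 genes in the table, and all 9 passed the filter on low counts that left 10869 genes for testing. Nme1, which encodes a nucleoside diphosphate kinase, was not analysed here.

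The HET group (3 libraries) had the genotype c-Mycfl/+Mx1Cre, and the WT group (3 libraries) had c-Mycfl/+. All samples are labelled as female and 8 weeks old, and both genotypes include 1 floxed copy of Myc, which encodes the transcription factor c-MYC, beside 1 unmodified copy. In Mx1Cre mice, Cre recombinase is made under the Mx1 promoter, which interferon switches on in many cell types and not in stem cells alone. HET mice received poly(I:C), a double-stranded RNA analog, intraperitoneally 3 times at 6 mg/kg. Whether WT mice received it is not stated on its own. How much of the floxed copy was deleted was not measured here. Libraries are numbered 1, 3 and 4 in each group. Their titles call the HET libraries KO, although 1 allele stays unmodified. The labels do not say that each library came from a separate animal, so p-values measure only the spread between these libraries, which may be technical.

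Purine nucleotides are assembled step by step on phosphoribosyl pyrophosphate (PRPP) until inosine monophosphate (IMP) is formed, from which separate branches lead to AMP and GMP. Pyrimidines are built as a ring first and joined to PRPP afterwards, giving UMP and then CTP. Dividing cells need both routes for RNA and DNA, and several of these genes are described as direct targets of MYC in other, proliferating cells, through the E-box that MYC binds together with its partner MAX.

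Library totals ran from 4249490 counts in WT 4 to 9886223 in HET 1, and the other HET libraries had 4627452 and 5054028. Myc itself measured 294, 387 and 372 CPM (the edgeR unit of counts scaled by library size) in HET 1, 3 and 4, against 447, 427 and 542 CPM in WT 1, 3 and 4. All HET libraries lay below all WT libraries for Myc (log2 fold change -0.43, SE 0.12), and its edgeR adjusted p was 0.312. All 10 stem cell markers listed were detected in each library, with Kit between 1145 and 1258 CPM in HET and between 1091 and 1229 CPM in WT. Summed, the 10 came to 2527, 2946 and 2965 CPM in HET 1, 3 and 4. In WT 1, 3 and 4 their sum was 2859, 2662 and 2988 CPM, so that HET 1 was the lowest of the 6 libraries. Summed markers of cycling cells (12 genes) came to 4074, 2314 and 2702 CPM in HET and to 2821, 3099 and 2572 CPM in WT, so that HET 1 was the highest and HET 3 the lowest. Summed megakaryocyte and platelet markers (6 of 6 detected) ran from 900 to 1097 CPM in HET and from 754 to 769 CPM in WT, without overlap. All 6 had positive log2 fold changes, as did 5513 of all 10869 genes tested. The median of the 6 was 0.65, against 0.00 over all genes, and the list was not tested as a set. By single gene, only 1 of the 6 did not overlap, with HET higher, as for 4.69% of all genes tested. That gene, Itga2b, measured 561, 364 and 391 CPM in HET and 316, 289 and 263 CPM in WT. Multipotent and myeloid progenitor markers (7 of 8 detected) summed to 544, 498 and 381 CPM in HET 1, 3 and 4. In WT 1, 3 and 4 their sum was 529, 461 and 393 CPM. Of the 7, 1 did not overlap with HET higher (Cd48) and 1 with HET lower (Prtn3). Cd48, whose protein the sort excluded, measured 3.67, 8.29 and 8.96 CPM in HET and 3.25, 2.74 and 1.67 CPM in WT. Its edgeR adjusted p was 0.849. The part of these markers in the results was not tested. Neutrophil markers (6 of 7 detected) ran from 18.1 to 268 CPM in HET and from 18.1 to 495 CPM in WT, and the 2 lymphoid markers with counts summed to at most 1.88 CPM in HET and 3.66 CPM in WT. In bulk RNA, fewer cells of a type and less RNA per cell cannot be told apart.

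The E-box letters CACGTG, which read the same on both strands, were looked for from 250 bases before to 50 bases after the RefSeq start of each gene (GRCm38.p6). They occurred in 12.2% of the genes tested that have such a window, and in 7.15% of all 32851 windows. In the lists of nucleotide genes used below, which include the enzymes, 9 of 77 genes with a window had them (11.7%). Of the 9 enzymes analysed, 3 had them (Impdh2, Paics and Atic). The 3 matches are shown because they are the places in these promoters where the letters of the MYC and MAX motif stand. Each is given with 12 bases on either side, 5′ to 3′ on the plus strand, with the motif in capitals, and the motif begins 110 bases before the start of Impdh2, 203 before that of Paics and 7 before that of Atic. The windows are chr9:108560314-108560343, chr5:76951087-76951116 and chr1:71557137-71557166.
Impdh2: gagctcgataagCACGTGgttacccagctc
Paics: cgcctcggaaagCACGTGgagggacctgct
Atic: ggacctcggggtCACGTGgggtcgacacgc
The starts used here are those of RefSeq and can differ from the first base of a gene in GENCODE, from which the gene coordinates were taken. By GENCODE, the Impdh2 window lies inside the gene, which begins at 108560286, and the Atic window spans the gene's first base, 71557150. The Paics window lies before Paics but inside the span of its neighbour Ppat, 76913249 to 76951578. Whether a protein was bound there was not measured, and the windows of Prps1, Ppat, Gart, Cad, Umps and Ctps hold no CACGTG.

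The first question was which of the enzymes differed in level between HET and WT stem cells. No enzyme passed the test over all genes. Impdh2, which makes the first committed step to GMP, was the only enzyme of the 9 whose 3 HET libraries all lay below all 3 WT libraries, at 60.1% of the WT level. The remaining 8 had fitted levels between 86.6% of WT (Paics) and 119.6% of WT (Ppat). With edgeR's quasi-likelihood test, 0 of the 9 had an adjusted p under 0.05, against 0.258% of all genes tested (0.221% lower and 0.0368% higher in HET). The unadjusted p was under 0.05 for 1 of the 9 (5.22% of all genes), and DESeq2 and limma-voom also called 0. The median log2 fold change of the 9 was -0.06, against 0.00 over all genes tested. That median was -0.21 without HET 1, 0.00 without HET 3, 0.05 without HET 4 and 0.00 without WT 3.

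**Figure D1:**
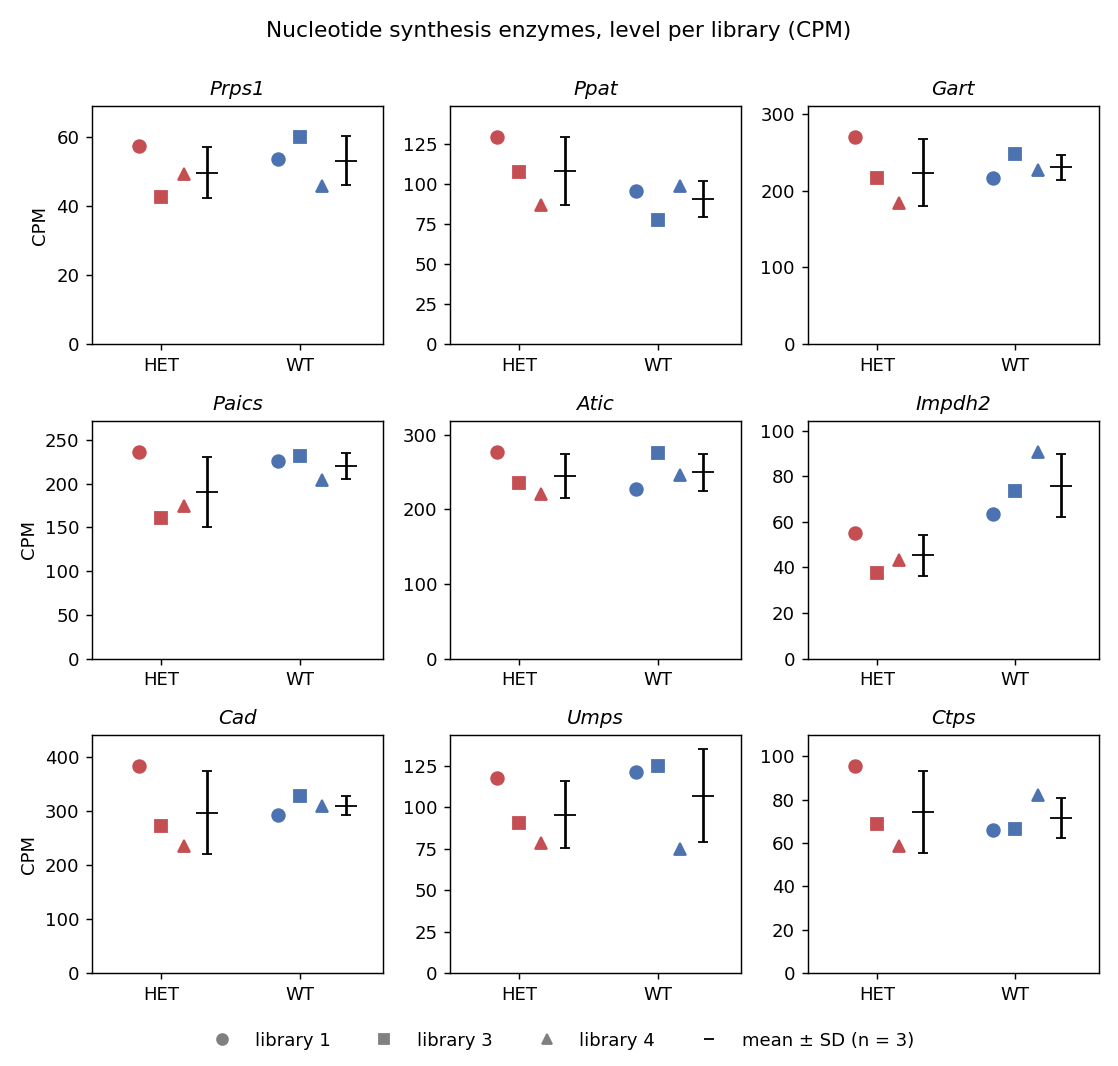
Levels of the 9 analysed enzymes in CPM (vertical axes, starting at 0), with 1 point per library, HET left of WT, marker shape for the library number and black bars for mean ± SD (n = 3). Only for Impdh2 do all HET points (37.5 to 55.2 CPM) lie below all WT points (63.5 to 90.9 CPM), and HET 1 is the highest HET point in all 9 panels.

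PRPP supply comes first in the pathway. Prps1 (ENSMUSG00000031432; chromosome X, 140456613 to 140476140, plus strand; coordinates of genes here are GRCm38) encodes a PRPP synthetase. It measured 57.2, 42.5 and 49.1 CPM in HET 1, 3 and 4, against 53.6, 59.8 and 45.8 CPM in WT 1, 3 and 4. The groups overlapped, and HET stood at 93.7% of WT with a 95% interval from 71.2% to 123% (edgeR adjusted p = 0.995).

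The de novo purine enzymes Ppat, Gart, Paics and Atic take PRPP to IMP. Ppat (ENSMUSG00000029246; chromosome 5, 76913249 to 76951578, minus strand) encodes the amidotransferase of the first committed step. Its levels were 129, 108 and 86.9 CPM in HET 1, 3 and 4, and 95.3, 77.4 and 98.7 CPM in WT. HET 1 and HET 3 lay above all WT libraries and HET 4 within their range, which gave 119.6% of WT (interval 94.7% to 151%; edgeR adjusted p = 0.995). Gart (ENSMUSG00000022962; chromosome 16, 91621186 to 91646952, minus strand), which encodes a protein with 3 of the route's enzyme activities, measured 269.8, 217 and 184 CPM in HET and 216 (WT 1), 248 (WT 3) and 227 CPM (WT 4). Here HET 1 was the highest library of all 6 and HET 4 the lowest. Gart stood at 97.1% of WT, with an interval from 80.1% to 118%.

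Paics (ENSMUSG00000029247; chromosome 5, 76951307 to 76967509, plus strand) encodes a protein that carries out a carboxylation and the step after it. It measured 236, 161 and 174 CPM in HET 1, 3 and 4, and 226, 232 and 204 CPM in WT. HET 3 and HET 4 lay below every WT library while HET 1 lay above them, and the fitted level was 86.6% of WT (interval 70.9% to 106%; edgeR adjusted p = 0.995). Atic (ENSMUSG00000026192; chromosome 1, 71557150 to 71579631, plus strand), whose protein closes the purine ring to IMP, measured 277, 235 and 221 CPM in HET and 227, 276 and 245 CPM in WT. HET 1 lay just above and HET 4 just below the WT libraries, and HET stood at 98.1% of WT (interval 82.2% to 117%).

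The widest difference among the 9 was that of Impdh2, which belongs to the GMP branch. Impdh2 (ENSMUSG00000062867; chromosome 9, 108560286 to 108565584, plus strand) encodes an IMP dehydrogenase, the enzyme usually taken as rate-limiting for guanine nucleotides. It had 556, 172 and 222 counts in HET 1, 3 and 4, and 352, 403 and 381 counts in WT 1, 3 and 4. Scaled, these were 55.2, 37.5 and 43.3 CPM in HET and 63.5, 73.7 and 90.9 CPM in WT. The 2 groups did not overlap, with HET lower, as for 5.64% of all genes tested. In the other direction 4.69% of all genes did not overlap, which makes 10.3% in either direction. The means were 45.3 ± 8.997 CPM in HET and 76.0 ± 13.8 CPM in WT (SD, n = 3 each). The fitted level was 60.1% of WT with a 95% interval from 45.5% to 79.3%, a log2 fold change of -0.74 ± 0.19 (SE). By unadjusted p (0.00102) it ranked 60 among the 10869 genes, and its edgeR adjusted p was 0.182.

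Whether Impdh2 passed depended on HET 1. Without that library its log2 fold change was -0.91 ± 0.20 (SE) with an edgeR adjusted p of 0.0300, in a fit that called 68 genes in place of 28, and when any of the 5 other libraries was left out instead, the adjusted p ran from 0.241 to 0.928. The fold change was negative in all 13 alternative fits, from -0.91 to -0.59. With every HET library below every WT library, leaving out a library could hardly turn that sign. The shared sign therefore restates the lack of overlap and is no separate result. A processed pseudogene on chromosome 8, Impdh2-ps, is 99.7% identical to an Impdh2 transcript over 1545 bases. The sources used here do not give how reads shared by the 2 were assigned, so the level of Impdh2 is uncertain. Copies with at least 90% identity also exist for Prps1 (Prps1l3, 93.2% over 1478 bases), Ctps, Paics and Atic, whose levels are uncertain in the same way.

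The pyrimidine enzymes are Cad, Umps and Ctps. Cad (ENSMUSG00000013629; chromosome 5, 31054780 to 31078479, plus strand) encodes the large protein with the first 3 activities of the route. It measured 383, 272 and 236 CPM in HET 1, 3 and 4, against 292, 327 and 309 CPM in WT. The WT libraries lay close together, HET 1 was above all of them, and HET 3 and HET 4 were below all of them. This gave 96.1% of WT (interval 77.7% to 119%; edgeR adjusted p = 0.995), and SDs of 76.7 CPM in HET and 17.6 CPM in WT. Umps (ENSMUSG00000022814; chromosome 16, 33954782 to 33967038, minus strand), which makes UMP, measured 117, 90.5 and 78.5 CPM in HET and 121, 125 and 74.6 CPM in WT. Here WT 4 was the lowest of the 6 libraries, all HET libraries lay within the WT range, and the level was 89.5% of WT (interval 67.4% to 119%). Ctps (ENSMUSG00000028633; chromosome 4, 120539868 to 120570276, minus strand), which encodes a CTP synthase, measured 95.4, 68.7 and 58.9 CPM in HET and 66.0, 66.4 and 82.0 CPM in WT. Its HET libraries ran from below to above the WT range, at 104.6% of WT (interval 80.2% to 137%).

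**Figure D2:**
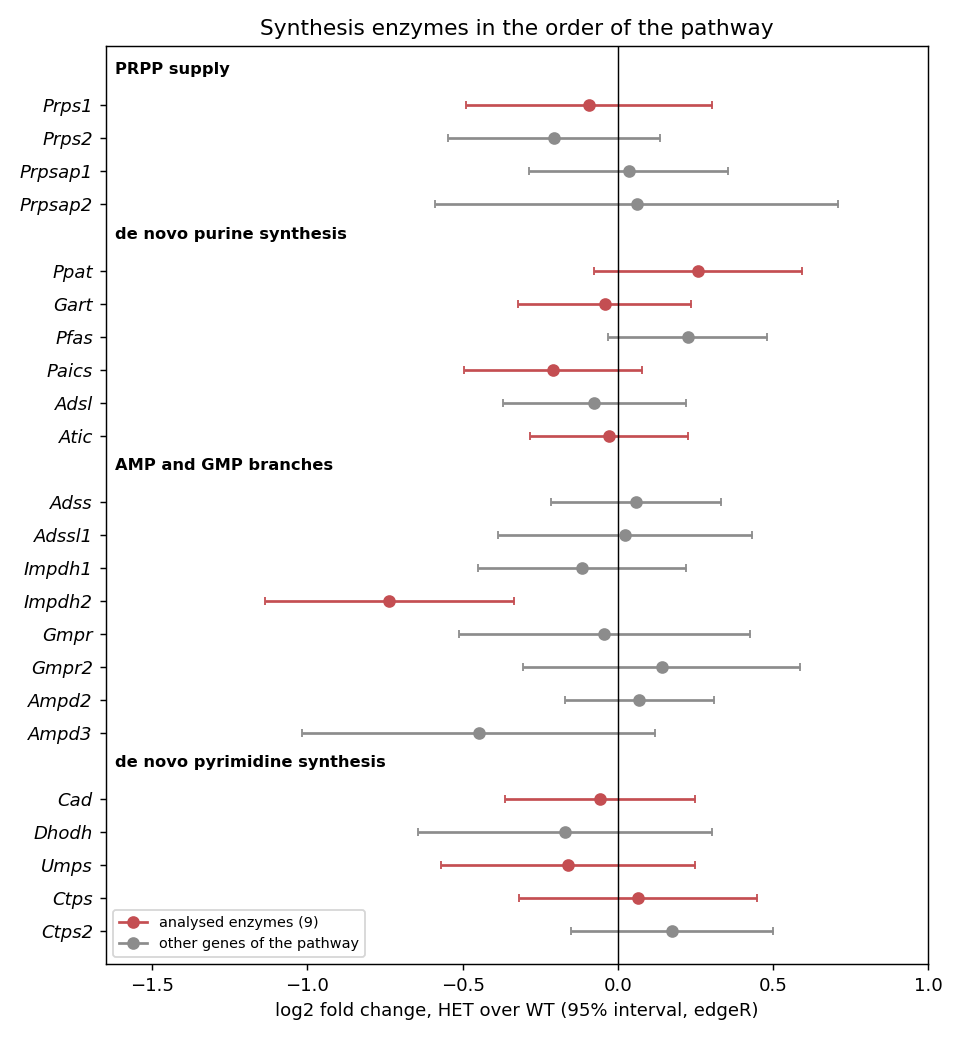
Log2 fold changes of HET over WT (horizontal axis) with 95% intervals from the edgeR fit, for the tested genes of 4 parts of the pathway in the order of synthesis, with the 9 analysed enzymes in red and other genes in grey. The interval of Impdh2 (around -0.74) is the only one shown that does not reach 0, while that of its paralog Impdh1 is centred at -0.12.

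Within HET, library 1 stood above the other two for each enzyme. HET 1 was the highest of the 3 HET libraries for 9 of the 9 enzymes, against 35.1% of all genes tested. It lay above every WT library for 6 of the 9, against 25.2% of all genes. HET 4 lay below every WT library for 6 of the 9, against 25.7% of all genes, and HET 3 for 4 of the 9, against 26.8%. The 65 other tested genes of the nucleotide network also leaned this way. HET 1 was their highest HET library in 52.3% and lay above every WT library in 35.4%, and HET 4 lay below every WT library in 32.3%. The mean log2 level of the 9 relative to the WT mean was 0.18 in HET 1, -0.23 in HET 3 and -0.32 in HET 4, while the WT libraries 1, 3 and 4 had -0.03, 0.06 and -0.02. HET 1 also had the highest summed cycling markers and the lowest summed stem cell markers of the 6 libraries. It had the largest total count and the lowest Myc level as well, and the part of all of these in the pattern was not tested.

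Since HET 1 was the highest HET library for each of the 9, leaving it out had to move each fold change downward. The values below restate that pattern and are no separate result. Paics then had -0.40 ± 0.12 (SE, edgeR adjusted p = 0.237), Cad -0.29 ± 0.12 (0.464), Umps -0.34 ± 0.19 (0.679) and Gart -0.20 ± 0.12 (0.727). Prps1 had -0.21, Ctps -0.16 and Atic -0.13, and Ppat was the single enzyme on the positive side, with 0.10 ± 0.17 (SE). Of the 9, only Impdh2 passed without HET 1, in a fit that called 0.616% of all genes tested (0.471% lower in HET).

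**Figure D3:**
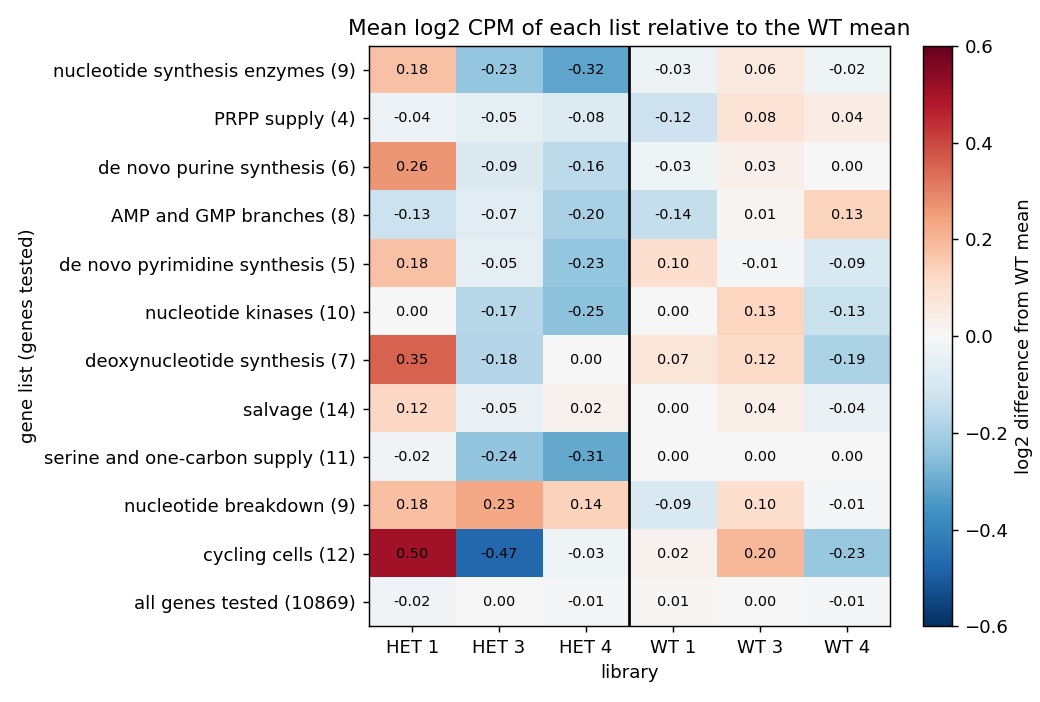
Mean log2 CPM of each gene list in each library relative to the WT mean, with red for higher and blue for lower, HET libraries left of the black line and the number of genes tested in brackets. The 9 nucleotide synthesis enzymes stand at 0.18 in HET 1 and at -0.23 and -0.32 in HET 3 and HET 4, while all genes tested stay near 0.

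Levels per kilobase of annotated exon allow the enzymes to be compared with each other. Paics was the highest, with 60.6 ± 12.9 CPM per kilobase in HET and 70.2 ± 4.71 in WT (SD, n = 3 each). Gart (43.4 ± 8.45 in HET and 44.8 ± 3.06 in WT) and Cad (36.3 ± 9.37 in HET and 37.8 ± 2.15 in WT) followed on the same scale. Atic, Umps and Prps1 came next, from 24.9 to 30.6 in HET and from 26.6 to 31.2 in WT. The lowest 3 were Impdh2 (14.7 ± 2.92 in HET and 24.7 ± 4.49 in WT), Ctps (22.4 ± 5.71 in HET and 21.6 ± 2.75 in WT) and Ppat (24.4 ± 4.75 in HET and 20.5 ± 2.59 in WT). In WT, ordered by WT levels, the mean ± SD ranges of neighbours overlapped from Atic downward. In HET, ordered by HET levels, the ranges of all neighbours overlapped. Impdh2 was seventh of the 9 in WT and ninth in HET. Lengths are unions of all annotated exons of a gene, so they understate the level of genes with long rarely used exons.

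Several enzymes have a paralog that carries out the same step, and the ratio within a library does not depend on its total. Impdh1, the other IMP dehydrogenase, measured 87.7, 74.1 and 102.3 CPM in HET 1, 3 and 4, and 97.1, 108.7 and 80.1 CPM in WT. Unlike Impdh2, its groups overlapped, at 92.3% of WT (interval 73.1% to 117%). Per kilobase, the ratio of Impdh2 to Impdh1 was 0.673, 0.542 and 0.453 in HET, against 0.700, 0.726 and 1.21 in WT. The groups did not overlap, but HET 1 and WT 1 were close, and the WT mean was raised by WT 4. The ratio of Prps1 to Prps2 was 1.53, 1.26 and 1.13 in the HET libraries, against 1.44, 1.32 and 0.921 in the WT libraries. That of Ctps to Ctps2 was 1.48, 1.18 and 0.981 in the HET libraries, against 1.05, 1.34 and 1.67 in the WT libraries, so both of these ratios overlapped.

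Ppat and Paics lie head to head on chromosome 5, where their annotated 5′ exons overlap by 272 bases on opposite strands. The ratio of Paics to Ppat per kilobase was 2.58, 2.11 and 2.82 in HET 1, 3 and 4, against 3.34, 4.22 and 2.91 in WT 1, 3 and 4. Its groups did not overlap, with HET 4 and WT 4 the nearest libraries, and no test was made of any of these ratios, since the pairs were picked after their values were seen. The ratio of Cad to Umps was 1.39, 1.28 and 1.28 in the HET libraries, against 1.02, 1.12 and 1.76 in the WT libraries. That of Gart to Atic was 1.51, 1.43 and 1.29 in the HET libraries, against 1.48, 1.39 and 1.44 in the WT libraries. Both overlapped, so that 2 of the 6 ratios computed did not overlap. How often the ratios of other gene pairs do not overlap was not computed. For single genes, the share without overlap in either direction was 10.3% of all genes tested. The sources used here do not give the strand setting of the counting, so reads in the shared 272 bases, 8.67% of the exonic length of Paics and 6.15% of that of Ppat, cannot be told apart. The same holds for 19.7% of the exonic length of Gart, 6.11% of that of Umps and 1.56% of that of Impdh2, which overlap Gm15964, Gm15829 and Ndufaf3 on the genome.

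**Figure D4:**
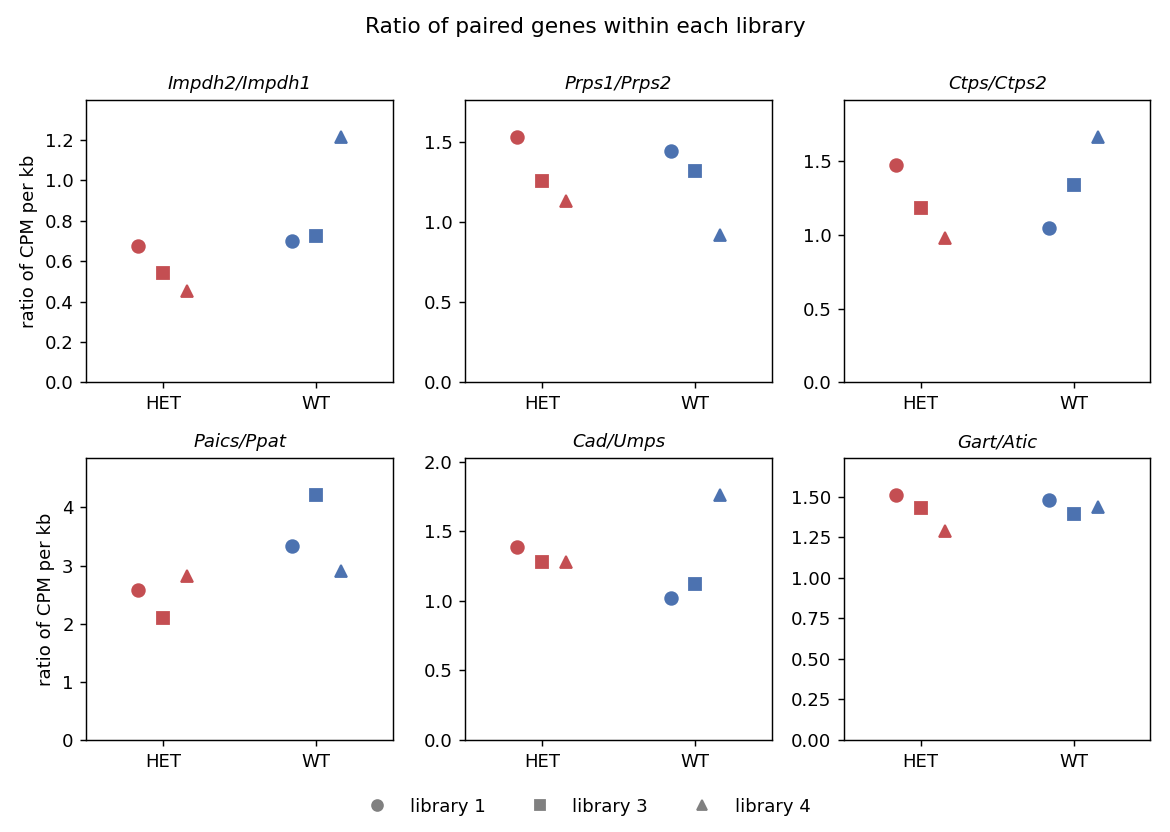
Ratios of CPM per kilobase between paired genes in each library (vertical axes, starting at 0), HET left of WT, with marker shape for the library number. The ratios Impdh2/Impdh1 (0.453 to 0.673 in HET, 0.700 to 1.21 in WT) and Paics/Ppat (2.11 to 2.82 in HET, 2.91 to 4.22 in WT) do not overlap between the groups, and the other 4 do.

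The second question was whether the rest of the nucleotide network differed. Of 80 further genes in 9 lists, 65 were tested and 0 passed in edgeR, against 0.258% of all genes tested. DESeq2 and limma-voom also called 0 of the 65, against 59 and 23 of all 10869 genes. With so few genes called anywhere, 0 calls here or in a single list below is no result about these genes. The unadjusted edgeR p was under 0.05 for 2 of the 65, Uck2 and Mthfd2l, against 5.22% of all genes tested. The groups did not overlap for 2 of the 65 with HET higher, against 4.69% of all genes. With HET lower this held for 3 of the 65, against 5.64% of all genes. The fold changes of the 65 were positive for 32 and negative for 33, with a median of -0.01 against 0.00 over all genes. Over all 10869 genes tested, 5513 fold changes were positive and 5356 negative.

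Among the other de novo genes, Pfas, which encodes a synthase of the purine route, measured 241, 189 and 227 CPM in HET and 193, 194 and 176 CPM in WT (log2 fold change 0.23 ± 0.12 SE; edgeR adjusted p = 0.979). HET 1 and HET 4 lay above all WT libraries, and HET 3 lay within the WT range. Adsl, an adenylosuccinate lyase, had -0.08 ± 0.14. In PRPP supply, 0 of 4 tested genes passed, with -0.21 ± 0.16 for the synthetase gene Prps2 and 0.04 ± 0.15 for Prpsap1, which encodes a synthetase-associated protein. In the AMP and GMP branches, 0 of 8 passed, and the AMP deaminase gene Ampd3 had -0.45 ± 0.27. In the pyrimidine route, 0 of 5 passed, with 0.17 ± 0.16 for the CTP synthase gene Ctps2 and -0.17 ± 0.23 for Dhodh, the mitochondrial dehydrogenase of the route (SE throughout).

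Of 10 tested nucleotide kinases 0 passed and 8 had negative fold changes, against 5356 of all 10869 genes, with a median of -0.08. The signs within this list and the lists below were not tested as sets. Nme4, a nucleoside diphosphate kinase of mitochondria, measured 29.1, 34.5 and 24.7 CPM in HET, below all WT libraries at 39.7, 39.2 and 37.9 CPM (edgeR adjusted p = 0.958). Of 7 deoxynucleotide synthesis genes 0 passed, and their median was 0.07. Rrm2, the ribonucleotide reductase subunit made in S phase, measured 57.2, 30.7 and 42.3 CPM in HET and 33.4, 46.1 and 23.4 CPM in WT, with overlapping groups and HET 1 the highest. Dctd, a deoxycytidylate deaminase, had -0.14 ± 0.17 (SE). The mean level of these 7 relative to WT was 0.35, -0.18 and -0.0018 in HET 1, 3 and 4, the same order of libraries as for the summed cycling markers.

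Of 14 tested salvage genes, which recycle preformed bases and nucleosides, 0 passed, and 7 had positive and 7 negative fold changes. Uck2, a uridine-cytidine kinase, measured 213, 158 and 161 CPM in HET and 227, 223 and 215 CPM in WT. Its HET libraries all lay below the WT libraries, the nearest at 213 against 215 CPM. Uck2 stood at 80.2% of WT (interval 66.5% to 96.7%; edgeR adjusted p = 0.813), and without HET 1 its log2 fold change was -0.48 (adjusted p = 0.0783). Uckl1, a related gene, had 0.35 ± 0.21 (SE).

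Of 11 serine and one-carbon genes, which supply carbon units for the purine ring and thymidylate, 0 passed and 9 had negative fold changes, with a median of -0.17 and a list level of -0.02, -0.24 and -0.31 in HET 1, 3 and 4. Mthfd2l, a mitochondrial folate enzyme gene, measured 8.13, 7.20 and 6.43 CPM in HET and 9.56, 7.87 and 24.6 CPM in WT, where WT 4 alone was high. Aldh1l1, a cytosolic folate dehydrogenase gene, had -0.35 ± 0.19 (SE). Of 9 genes of nucleotide breakdown 0 passed and 8 had positive fold changes, against 5513 of all 10869 genes, with a median of 0.16. Nt5c2, a cytosolic nucleotidase, measured 143, 150 and 155 CPM in HET, above all WT libraries at 123, 126 and 131 CPM (log2 fold change 0.24 ± 0.12 SE; edgeR adjusted p = 0.952). Itpa, which clears inosine triphosphate, had 0.41 ± 0.30 (SE), with overlapping groups.

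The genes outside these lists whose pattern over the 6 libraries was nearest to the mean pattern of the 9 enzymes were Cct3, Hmgb2 and Csrp1, with root-mean-square differences of 0.03, 0.03 and 0.04 on the log2 scale. Cct3, a subunit of the cytosolic chaperonin, measured 304, 219.6 and 222 CPM in HET 1, 3 and 4, and 268, 284 and 265 CPM in WT. Hmgb2, a chromatin protein, had 106, 78.1 and 73.5 CPM in HET and 85.3, 96.4 and 88.5 CPM in WT. As in the mean of the 9 enzymes, HET 1 was the highest and HET 3 and HET 4 the lowest of the 6 libraries in each of these genes. Likeness over 6 libraries picks the nearest of many genes and is a description.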

How the data were processed

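RNA-seq of 6 libraries was analysed. What the authors deposited is 1 table holding whole-number counts for each gene in each library. The submitters' processing notes name FastQC, STAR 2.5.2b, edgeR, limma and mm10, without role or order. The sources used here do not give the read counter, annotation or strand setting, since the protocol fields of these samples describe material of another study. Every gene reached 1.01 CPM in at least 2 libraries.

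Groups came from the genotype label and library numbers from the titles. Counts were tested with edgeR 4.0.16 in R 4.3.3. The steps were filterByExpr (910 genes removed), TMM scaling, robust dispersions and a quasi-likelihood F test with group as the only term. P-values were adjusted by Benjamini-Hochberg over all 10869 genes, with a threshold of 0.05. The biological coefficient of variation was 20.7%. Standard errors and 95% intervals were derived from the F statistic. Log2 levels of lists used a prior count of 2.

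Gene positions and exon lengths came from GENCODE M21 (GRCm38, also called mm10), near-identical copies from BLAST of its transcripts (at least 90% identity over 200 bases), and promoter letters from RefSeq, where all 9 enzymes matched by symbol. The enzymes and lists were chosen with earlier results of these data known. The rule for named genes took all enzymes, Myc, the 2 other genes of smallest p per list, and the 3 genes of nearest pattern. A gene that this rule named is not reported here. Alternatives were scaling by RLE or by the upper quartile, leaving the deposited table unfiltered or requiring 10 CPM in 3 libraries, DESeq2 1.42.0, limma-voom (limma 3.58.1), a threshold of 0.1, the library number as a block and leaving out each library. The fits were tested on simulated counts.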

Additional observations from a re-analysis of the deposited data

How the results depend on the processing

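No enzyme was called under any alternative other than leaving out HET 1, where 1 of the 9 (Impdh2, log2 fold change -0.91, edgeR adjusted p = 0.0300) passed, so the count ran from 0 to 1 over the 6 fits that left out a library. Impdh2 was negative in all 13 alternatives, which largely follows from its groups not overlapping. Its adjusted p was 0.0686 in DESeq2 and 0.379 in limma-voom. The 65 further pathway genes gave 0 calls in each alternative. The count over all genes, 28, was 59 in DESeq2, 49 with the library number as a block, and from 10 (without HET 4) to 68 (without HET 1) when leaving out a library; it was 11 without WT 1. Scaling, filters, limma-voom and a threshold of 0.1 kept it between 23 and 35. The median of the 9 ran from -0.21 (without HET 1) to 0.05 (without HET 4).

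Leaving out a library turned the sign of values near 0. Over the 6 such fits the log2 fold change ran from -0.20 to 0.087 for Gart, from -0.13 to 0.052 for Atic, from -0.29 to 0.090 for Cad, from -0.16 to 0.21 for Ctps, from -0.21 to 0.0050 for Prps1, from -0.024 to 0.15 for Prpsap1 and from -0.26 to 0.041 for Adsl. Ctps turned without HET 1, Gart, Cad and Adsl without HET 4, and Atic without HET 3, HET 4 or WT 3; Cad also turned without HET 3, Gart without WT 3, and Prps1 without HET 3 or WT 3. Prpsap1 turned without HET 4, WT 1 or WT 4. None of these passed in either fit, and the cause was not tested.

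No label says that the library numbers 1, 3 and 4 pair the samples. Deviations of same-numbered libraries from their group means correlated at 0.11, -0.04 and 0.07. HET 3, WT 3 and WT 4 each correlated more with a library of another number. With the replicate block 0 of the 9 enzymes and 0 of the 65 other genes passed, Impdh2 had -0.74 (adjusted p = 0.191), and the median of the 9 was -0.09. With 3 libraries a group, even the narrowest 95% interval among the 9 enzymes (Atic) spans from 82.2% to 117% of WT.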
